A study of Mus musculus with 14 samples.

Results

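The RUNX and TEAD transcription factor genes were examined for MyoD and MyoG binding in quiescent and activated muscle stem cells of the mouse. The 10 genes were Runx1, Runx2 and Runx3, the gene of their shared partner Cbfb, Tead1, Tead2, Tead3 and Tead4, and the genes of the TEAD co-activators Yap1 and Wwtr1. Every peak that the deposited lists gave to any of these gene names was taken, whatever its distance. This rule found 28 of the 10303 peaks in the 12 lists, and 5 of the 10 genes had at least 1 peak, against 14.4% of the 21900 RefSeq protein-coding genes. A gene with no peak was counted as not bound.

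RUNX proteins bind DNA through a conserved Runt domain, and their affinity rises when the non-DNA-binding partner CBFβ joins them. TEAD proteins bind DNA but activate transcription mainly through the co-activators YAP (Yap1) and TAZ (Wwtr1), which the Hippo kinases keep out of the nucleus. In muscle, RUNX1 is known as a factor of injured and denervated tissue, TEAD sites (MCAT elements) lie in promoters of contractile genes, and YAP is known to promote proliferation of muscle stem cells. MyoD is the factor that commits cells to the muscle lineage, MyoG acts later in differentiation, and both bind the E-box CANNTG.

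The cells came from mice labelled wild-type that carried a mitochondrial Dendra2 reporter allele, which a Pax7-driven recombinase switches on in muscle stem cells and their progeny only. All mice received tamoxifen at 75 mg/kg once a day for 5 days. The tibialis anterior muscle of a leg was then injured by an injection of 50 µL of 1.2% BaCl2, with saline in the other leg as control. After 2 days, quiescent stem cells (QSCs: CD34+, Dendra2+, DAPI-) were sorted from uninjured muscle and activated stem cells (ASCs: CD34-, Dendra2+, DAPI-) from injured muscle. The 2 states therefore differ in injury and in the CD34 gate together, and these cannot be told apart. The animals were adults, and exact age, sex and the number of animals pooled per library are not given in the sources used here. There were 3 ChIP libraries for each of the 4 combinations of state (ASC or QSC) and antibody (MyoD or MyoG). Peak lists hold no expression values, so the cell types could not be checked against marker genes.

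The lists differed widely in length. ASC MyoD libraries held 2262 to 2652 peaks, ASC MyoG libraries 605 to 916, QSC MyoD libraries 139 to 174 and QSC MyoG libraries 120 to 167. The number of reads behind each list is unknown. A site without a listed peak is therefore a site where no peak was called, which is not the same as a site where the factor was absent. The libraries of a group are described as biological replicates.

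The RUNX genes share a sequence at their start sites, which is shown because it ties the 3 genes of the family together and because none of the MyoD peaks fell on it. Among the RefSeq promoter windows of mouse build GRCm38.p6 (250 bases before to 50 after a start site), windows of Runx1, Runx2 and Runx3 hold the same stretch of 18 bases, in which the RUNX motif ACCACA, in capitals, occurs 2 times. It lies on the minus strand of chr16:92826031-92826048 in Runx1 and of chr17:44814589-44814606 in Runx2, starting at base 27 and base 22 after the start site. In Runx3 it lies on the plus strand at chr4:135120509-135120526, before the start site (first base at -136).
Runx1: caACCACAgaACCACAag
Runx2: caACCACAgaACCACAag
Runx3: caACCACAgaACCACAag
Of all 32851 windows, 3 held this stretch and 595 (1.81%) held at least 2 RUNX motifs (TGTGGT or ACCACA, which are the same motif on opposite strands). The other windows of Runx1 (chr16:92697280-92697579) and Runx3 (chr4:135152295-135152594) held 0 RUNX motifs.

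The 250 bases upstream of these start sites of Runx1 and Runx2, the RUNX genes that had peaks, are shown next with E-boxes (CANNTG) in capitals. The Runx1 sequence is the minus strand of chr16:92826075-92826324 and holds 3 E-boxes. The Runx2 sequence is the minus strand of chr17:44814628-44814877 and holds 1.
Runx1: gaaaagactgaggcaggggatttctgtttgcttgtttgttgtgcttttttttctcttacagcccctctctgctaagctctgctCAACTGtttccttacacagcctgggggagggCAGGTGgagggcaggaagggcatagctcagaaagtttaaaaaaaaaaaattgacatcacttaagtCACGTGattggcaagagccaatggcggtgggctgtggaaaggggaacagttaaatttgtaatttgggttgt
Runx2: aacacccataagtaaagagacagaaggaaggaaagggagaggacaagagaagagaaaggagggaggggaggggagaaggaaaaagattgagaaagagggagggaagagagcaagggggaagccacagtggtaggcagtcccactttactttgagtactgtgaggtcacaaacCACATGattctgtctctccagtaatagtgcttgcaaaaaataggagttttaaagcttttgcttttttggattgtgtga
The nearest MyoD region of Runx1 lay 104 kb from this Runx1 window, and that of Runx2 lay 306 kb from the Runx2 window. The other Runx1 window, not shown, held 0 E-boxes and lay 88.3 kb from the nearest Runx1 region. In all, the RefSeq table gave 13 windows for 8 of the 10 genes, all but Tead1 and Tead4, and no listed peak of either antibody overlapped any of the 13. Windows of 1 gene can overlap and share a match, as those of Wwtr1 do. An E-box was found in 5 of the 13 windows, from 4 genes. It was found in 72.3% of all windows and in 89.9% of the 168 windows that a MyoD region of ASCs overlapped. The E-box CAGCTG, which reads the same on both strands, was in 0 of the 13 windows, against 16.3% of all windows and 50.6% of the overlapped ones. The E-box CAGGTG (or CACCTG) was in 2 of the 13, against 20.2% and 33.9%. These 2 E-boxes are special cases of CANNTG and are counted in it. The RUNX motif was in 3 of the 13 windows (16.8% of all windows), and the TEAD motif GGAATG (or CATTCC) was in 6 windows of 4 genes (14.7% of all windows). All motifs were searched on both strands, and a match is a string of letters, not a site.

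MyoD peaks were listed at Runx1, Runx2, Tead1, Tead4 and Wwtr1, almost all of them in ASCs. Of the 28 peaks, 27 came from the 3 ASC MyoD libraries, 1 from a QSC MyoD library, and 0 from the 6 MyoG libraries. The 3 ASC MyoD libraries held 10, 9 and 8 of them (mean 9.0 ± 1.0, SD, n = 3), at 4, 5 and 4 of the genes. As a share of the whole list this was 0.377%, 0.398% and 0.348% of peaks (mean 0.374% ± 0.0248, SD, n = 3). The QSC MyoD libraries held 0, 0 and 1, and the last of these was 0.575% of the peaks in replicate 3. Counts in ASC MyoD thus did not overlap those of any other group, while the share in QSC MyoD replicate 3 lay above all 3 ASC shares in a list of 174 peaks.

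**Figure D1:**
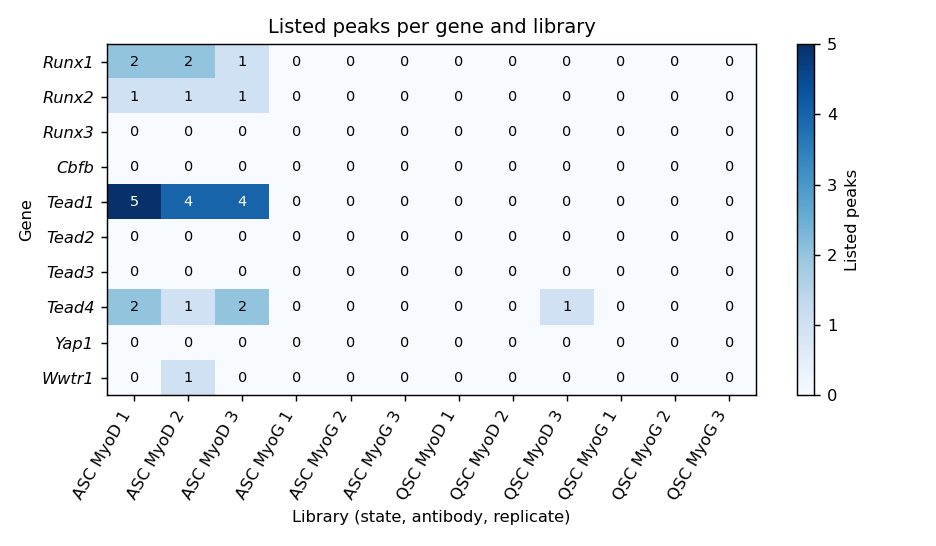
Number of listed peaks at each of the 10 genes (rows) in each of the 12 ChIP libraries (columns), printed in the cell and coloured by the bar at the right. Tead1 had 5, 4 and 4 peaks in the 3 ASC MyoD libraries, and 1 peak, at Tead4 in QSC MyoD replicate 3, lay outside the ASC MyoD columns.

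Overlapping peaks (at least 1 bp) were merged into regions. Regions found in 2 or 3 of the 3 libraries of a group are termed consensus regions. The 28 peaks made 12 regions. All 3 ASC MyoD libraries had a peak at 6 of these, 2 libraries at 3, and 1 library at 3. Of the 27 ASC peaks, 24 (88.9%) overlapped a peak of another ASC MyoD library, against 70.7% of all 7210 ASC MyoD peaks. Scores are minus 10 times log10 of the peak caller's p-value, and the lowest in the lists is 50.0, a p of 1e-05. The median score of the 27 peaks was 95.82 (range 51.73 to 283.72), and that of all ASC MyoD peaks was 72.12. Ranked within their own lists, 10 of the 27 (37.0%) were above the 90th percentile and 7 below the 50th. The RUNX and TEAD peaks thus included some above the 90th percentile of each list and some close to the lowest score. The highest scores of the 3 lists were 681.52, 564.01 and 754.92.

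At the gene level, 4 of the 10 genes had a MyoD consensus region in ASCs (Runx1, Runx2, Tead1 and Tead4), where 5.95% of the 21900 RefSeq protein-coding genes did. The 10 genes were chosen with earlier results of these data known, so such contrasts, here and above, are description only. A region was ASC-specific when it had a consensus in ASCs and no peak in any of the 3 QSC libraries of the same antibody. Such a MyoD region was given to 3 of the 10 genes (Runx1, Runx2 and Tead1), against 5.92% of all genes. An ASC-specific MyoG region was given to 0 of the 10, against 0.187% of all genes, so few genes in all had one. At the region level, 8 of the 12 regions were ASC-specific for MyoD, against 44.0% of all 4488 merged MyoD regions. Those 4488 include regions without a consensus in ASCs. Of the 1986 MyoD consensus regions of ASCs, 1976 were ASC-specific, beside 8 of the 9 at these genes. Without ASC MyoD replicate 1, 5 regions of the 10 genes were ASC-specific. A consensus then needed a peak in each remaining ASC library, and every region seen in 2 libraries had its peaks in replicate 1 and another. Without QSC MyoD replicate 3 there were 9 in 4 genes, Tead4 being added. Long genes more often had a region: of the 990 RefSeq genes of at least 200 kb, 23.5% had a MyoD consensus region, and the 3 genes of this length among the 10 (Runx1 of 225 kb, Runx2 of 319 kb and Tead1 of 227 kb) all had one. The part of gene length in the count was not tested beyond this.

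Among the TEAD genes, which encode the DNA-binding factors of the Hippo pathway, Tead1 carried the most regions. Tead1 (ENSMUSG00000055320, chr7:112679356-112906784, plus strand) had 13 peaks in 5 regions spread over 159 kb, all of them consensus regions and ASC-specific. Of the 1303 genes with a consensus region, 1057 had 1, 189 had 2, 42 had 3, 12 had 4 and 3 had 5. The other two genes with 5, Cdh5 and Rreb1, are named here after their values were seen.

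Intron numbers here and below are those of the transcript that the lists name with a peak. The region with the highest mean score of the set lay in Tead1 intron 9 of 11, at chr7:112885251-112886250. Its scores were 283.72, 256.98 and 224.11 in ASC MyoD replicates 1, 2 and 3 (mean 255 ± 29.9, SD, n = 3), which ranked at the 97.0 to 97.8 percentile of their lists. A second region of the same intron, at chr7:112883530-112884605, was separated from it by 645 bp and scored 146.21, 169.47 and 227.3 (mean 181 ± 41.8). The 2 regions lay 206 kb and 205 kb from the 5′ end of the gene, and the better-scored region stood at 90.8% of its length. In replicate 3 the 2 scores were nearly equal, whereas the downstream region scored higher in replicates 1 and 2.

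Tead1 also had a region that the authors annotated as promoter, within 1 kb of a start site, at chr7:112760401-112761516. It lay 81.6 kb inside the RefSeq gene, so the start site in question is an internal one. Its scores were 128.41, 95.82 and 57.46 (mean 93.9 ± 35.5), which ranked at the 83.3, 72.5 and 26.9 percentile, so this region had a high rank in replicate 1 and a low one in replicate 3. The remaining Tead1 regions had peaks in 2 libraries each. In intron 2, at chr7:112775615-112776726, replicates 1 and 3 scored 70.59 and 72.15 (mean 71.4 ± 1.10, n = 2). At chr7:112918103-112919097, 11.3 kb beyond the 3′ end, replicates 1 and 2 scored 53.05 and 59.34 (mean 56.2 ± 4.45, n = 2), the lowest mean of any consensus region of the set. No Tead1 region had a peak in QSCs or with MyoG.

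Tead4, a TEAD gene known to be a MyoD target in muscle cell lines, had the only peak of the set in quiescent cells. Tead4 (ENSMUSG00000030353, chr6:128227143-128300813, minus strand) had a region in intron 8 of 11, at chr6:128236179-128237980, with scores of 202.3, 230.72 and 163.63 in ASC MyoD (mean 199 ± 33.7, SD, n = 3) and percentiles of 92.2 to 96.9. QSC MyoD replicate 3 had a peak of 840 bp at chr6:128236305-128237144 that shared 666 to 840 bp with the ASC peaks. Its score was 53.85, at the 33.3 percentile of that list, and replicates 1 and 2 of QSC MyoD had no peak there. The QSC score was thus close to the lowest listed one and under all 3 ASC scores, although a score also depends on the depth of its library. Of the 1986 MyoD consensus regions of ASCs, 10 (0.504%) overlapped a QSC MyoD peak, and this was among them.

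The other Tead4 regions were seen in a single library each. An intron 2 peak at chr6:128264550-128265738 was listed in replicate 1 only, with a score of 83.22. A promoter peak at chr6:128275443-128276318 was listed in replicate 3 only, with a score of 51.73, and lay 24.9 kb inside the RefSeq gene. Tead4 thus had 1 region that repeated among the ASC libraries and 2 that did not. Tead2 (chr7:45215792-45233468) and Tead3 (chr17:28331671-28350805), which are the shortest of the 10 genes at 17.7 kb and 19.1 kb, had no peak and counted as not bound.

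Of the TEAD co-activators, Wwtr1 (TAZ, ENSMUSG00000027803, chr3:57455644-57575910, minus strand) had 1 peak in intron 3 of 6, at chr3:57496236-57497046. It was listed in ASC MyoD replicate 2 only, with a score of 54.43, at the 14.8 percentile. Yap1 (chr9:7931999-8004638) had no peak in any of the 12 lists. Neither co-activator gene therefore had a consensus region, and 2 of the 4 TEAD genes did, against 5.95% of all RefSeq protein-coding genes. With so few genes, these counts do not separate the roles.

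Among the RUNX genes, Runx1 and Runx2 had peaks in ASC MyoD and Runx3 had none. Runx2 (ENSMUSG00000039153, chr17:44495987-44814797, minus strand) is best known as the master factor of bone formation. It had a single region, in the last intron of transcript ENSMUST00000162816, intron 5 of 5, at chr17:44507826-44508901. Its scores were 182.15, 139.65 and 212.41 (mean 178 ± 36.6, SD, n = 3), and its percentiles were 92.5, 87.4 and 96.5. The region lay 306 kb from the 5′ end of the gene and 12.4 kb from its 3′ end, at 96.1% of the gene's length. It was the best-scored RUNX region in all 3 libraries.

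Runx1, a factor essential for blood stem cell formation (ENSMUSG00000022952, chr16:92601466-92826074, minus strand), had 2 regions. The first, at chr16:92607965-92609026, lay in intron 4 of 4 of transcript ENSMUST00000113956. This region scored 88.7 in replicate 1 and 92.13 in replicate 2 (mean 90.4 ± 2.43, n = 2) and had no peak in replicate 3. It lay 7.03 kb from the 3′ end, at 96.9% of the gene's length. The other was a distal intergenic region at chr16:92929908-92930766, 104 kb upstream of the gene, with scores of 64.51, 78.9 and 77.41 (mean 73.6 ± 7.91, SD, n = 3). This distal region was present in all 3 libraries at middling ranks (34.0, 57.8 and 61.2 percentile), while the intronic region had higher scores in fewer libraries. The gene name of a distal region is the authors' assignment, and the gene it acts on was not tested.

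Runx3 (chr4:135120645-135177990) and Cbfb (chr8:105170674-105217989), the common partner subunit, had no peak and counted as not bound. The RUNX DNA-binding subunits with peaks were thus 2 of 3, and the partner subunit had none, against 14.4% of all RefSeq protein-coding genes. Runx3 (57.3 kb) and Cbfb (47.3 kb) are shorter than Runx1 (225 kb) and Runx2 (319 kb). The part of gene length in this was not tested, and so few genes do not separate subunit from partner.

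Tests were made on the number of libraries with a peak. For the 5 ASC-specific regions in 3 libraries (3 of Tead1, and 1 each of Runx1 and Runx2), 3 of 3 ASC MyoD and 0 of 3 QSC MyoD libraries had a peak, and the two-sided Fisher exact test gave p = 0.1 (0.404 after Benjamini-Hochberg adjustment over all merged MyoD regions). This p is the smallest that 3 libraries against 3 allow, so no single region could pass 0.05. The 3 regions in 2 of 3 ASC libraries, and the Tead4 intron 8 region with its QSC peak, gave p = 0.4 by the same exact test (adjusted 0.890), and the regions in a single library gave p = 1.

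The factors were compared in ASCs in the same way. None of the 12 regions overlapped a MyoG peak. A MyoD consensus with no MyoG peak was found at 9 of the 12, against 33.1% (1911) of all 5779 merged ASC regions. Those 5779 include regions without a MyoD consensus. The MyoD consensus regions of ASCs numbered 1986 when merged with the QSC lists, so most consensus regions had no MyoG peak. Lacking a MyoG peak was thus not particular to these 9. The exact Fisher p was 0.1 (adjusted 0.514) for the 6 regions with peaks in all 3 MyoD libraries, Tead4 intron 8 included, and 0.4 (adjusted 1) for the 3 regions in 2 libraries. The ASC MyoG lists held fewer peaks than the ASC MyoD lists, and the part of list length in this difference was not tested.

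**Figure D2:**
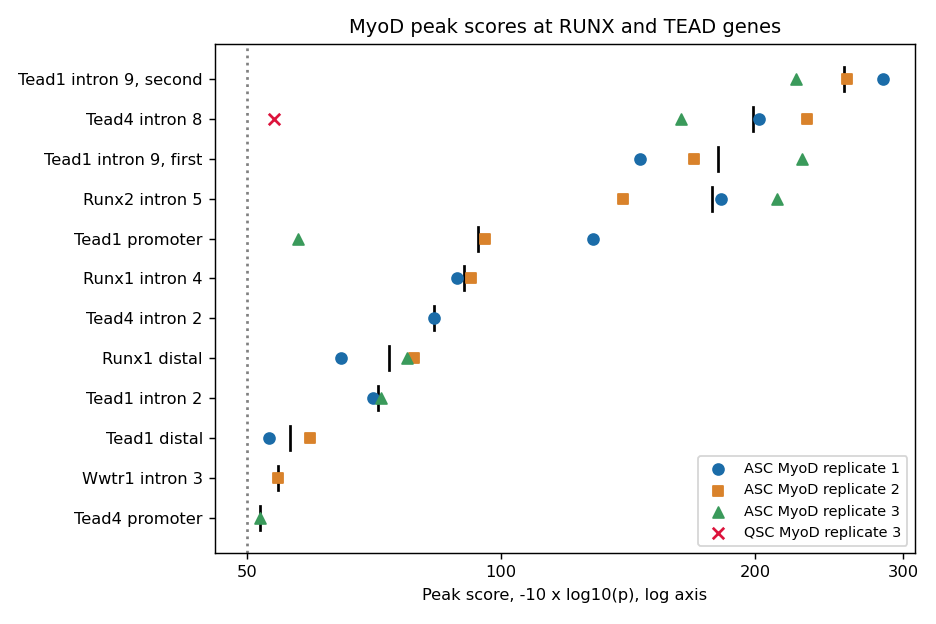
Score of every listed peak of the 12 regions, as minus 10 times log10 of the p-value on a log axis, with a symbol for each library and a black bar at the mean of the ASC MyoD libraries that had a peak. The dotted line is the lowest listed score of 50.0. Tead1 intron 9, Tead4 intron 8 and Runx2 intron 5 lie to the right of the other regions, and the QSC peak at Tead4 intron 8 scored 53.85.

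Ordered by mean score, the 9 consensus regions ran from the downstream Tead1 intron 9 region (255), through Tead4 intron 8 (199), the upstream Tead1 intron 9 region (181) and Runx2 intron 5 (178), to the Tead1 promoter (93.9), Runx1 intron 4 (90.4), Runx1 distal (73.6), Tead1 intron 2 (71.4) and Tead1 distal (56.2). Most neighbours in this order had overlapping ranges over the libraries with a peak. The ranges were apart between Runx2 intron 5, with a lowest score of 139.65, and the Tead1 promoter, with a highest of 128.41. They were also apart between the regions of Runx1 (88.7 against 78.9). The same held for Tead1 intron 2 and Tead1 distal (70.59 against 59.34). In replicate 3, however, Runx1 intron 4 had no peak while Runx1 distal scored 77.41. In replicate 2, Tead1 intron 2 had no peak while Tead1 distal scored 59.34. Neither order therefore held in every library. The first 4 regions in the order thus had scores in every ASC MyoD library that exceeded all scores of the 5 others.

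Intronic regions made up 6 of the 9 consensus regions (66.7%), 2 were distal (22.2%) and 1 was promoter (11.1%). Among all 1986 MyoD consensus regions of ASCs, 35.5% were intronic, 35.5% distal and 22.3% promoter. The 6 intronic regions lay mostly near the 3′ end of their genes, a pattern noticed in the data and not tested. In position along the gene, 5 of the 6 lay beyond 80% of the gene's length (83.3%, median position 90.4%). Tead1 intron 2, at 42.6%, was the exception. Of the 498 intronic consensus regions that lay inside the RefSeq gene they were given to, with its strand known, 18.5% lay beyond 80% (median 51.5%, in 423 genes), and in genes of at least 200 kb 23.0% of 178 regions did (median 52.5%). The 6 regions come from 4 genes, and the pair in Tead1 intron 9 are neighbours.

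**Figure D3:**
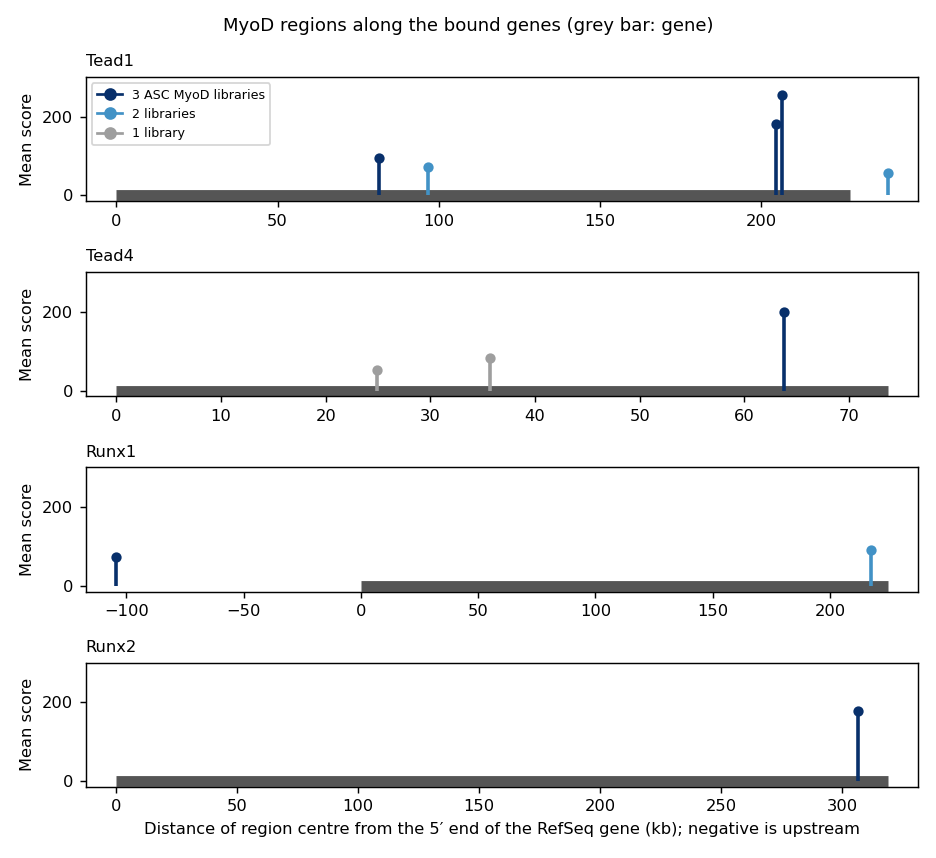
Regions along Tead1, Tead4, Runx1 and Runx2, placed by the distance of their centre from the 5′ end of the RefSeq gene in kb (negative is upstream) with the mean ASC MyoD score as height and the number of ASC MyoD libraries as colour. The dark bar is the gene. The tallest regions of Tead1, Tead4 and Runx2 stand toward the 3′ end, and the distal Runx1 region stands 104 kb upstream.

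**Figure D4:**
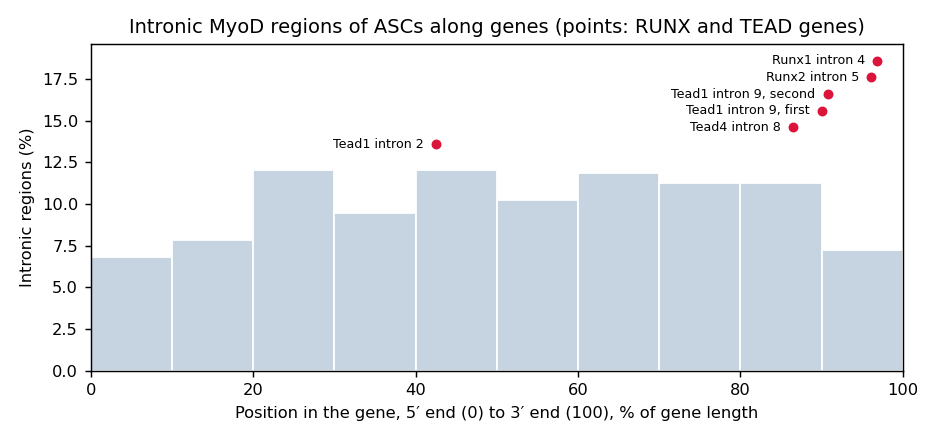
Position of intronic MyoD consensus regions of ASCs along their genes, from the 5′ end (0) to the 3′ end (100), in % of gene length. Bars give the percent of the 498 placed intronic regions in each of 10 equal bins, points mark the 6 regions of Runx1, Runx2, Tead1 and Tead4, and the height of a point has no meaning. Of the points, 5 lie beyond 80%.

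Gene names in the lists follow the authors' assignment, so regions near the 10 genes that were given to other genes were also counted. These neighbours are named after their values were seen. A MyoD consensus region lay in the gene or within 100 kb of it for 7 of the 10 genes, against 21.7% of all RefSeq genes. The 3 genes added were Tead2, Runx3 and Cbfb. A region given to Kash5 lay 23.3 kb upstream of Tead2, at chr7:45191464-45192512, and scored 143.34, 65.23 and 93.07 (mean 101 ± 39.6, SD, n = 3). A region given to Gm16225 lay 24.5 kb upstream of Runx3 and had peaks in 2 libraries (mean 64.5 ± 8.93). A region given to Nol3 lay 58.0 kb downstream of Cbfb and also had peaks in 2 libraries (66.82 and 66.07). The remaining MyoD peaks near the 10 genes were in a single ASC library each. They were a peak inside Runx1 given to Gm26626 (chr16:92611643-92612961, score 60.8), a peak 94.6 kb downstream of Runx3 given to Clic4 (69.25) and a peak 98.6 kb downstream of Tead3 given to Ppard (57.1). Yap1 had no peak within 100 kb. The only MyoG peak within 100 kb of any of the 10 genes was given to Supt3, 54.4 kb upstream of Runx2. It was listed in 1 ASC MyoG library, with a score of 56.14.

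Of 36 further genes of the Hippo pathway and of RUNX cofactors, 5 (13.9%) had a MyoD consensus region in ASCs, all 5 of them ASC-specific, beside 5.95% and 5.92% of all genes. By role, 3 of the 4 Vestigial-like genes, whose products bind TEADs as cofactors, had such a region (Vgll2, Vgll3 and Vgll4). The kinase module had 1 of 14 (Nf2, the gene of the upstream regulator merlin), and the RUNX co-repressors and relatives had 1 of 7 (Tle3, a Groucho-type co-repressor). The inhibitors that bind YAP and TAZ had 0 of 4, the target genes 0 of 4 and the upstream cadherins 0 of 3. This list was also chosen with earlier results of these data known, so its shares are description only.

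Vgll4 (ENSMUSG00000030315) had a region in intron 2 of 4, at chr6:114888747-114889643, with scores of 142.23, 55.42 and 77.56 (mean 91.7 ± 45.1, SD, n = 3). Its other consensus region, at chr6:114860732-114862088, was in 2 ASC MyoD libraries (59.02 and 50.06) and also had a peak of 57.59 in 1 ASC MyoG library. Vgll3 (ENSMUSG00000091243) had a region in intron 1 of 3, at chr16:65820656-65821414, with scores of 108.01, 70.44 and 60.07 (mean 79.5 ± 25.2, SD, n = 3). Vgll3 also had a distal QSC MyoD peak of 52.02 elsewhere, in 1 library, so both states had a peak given to this gene but at different sites. Vgll2 (ENSMUSG00000049641) had a distal region at chr10:51961199-51961995 in 2 libraries (59.48 and 55.16).

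Tle3 (ENSMUSG00000032280) had a distal region at chr9:61438804-61439899 with scores of 115.68, 258.57 and 61.89 (mean 145 ± 102, SD, n = 3), which varied more between libraries than any region of the 10 genes. A further distal Tle3 region, at chr9:61645382-61646326, was in 2 libraries (60.06 and 56.89). Nf2 (ENSMUSG00000009073) had a region annotated to its 3′ UTR, at chr11:4771517-4772423, in 2 libraries (66.64 and 76.67). Of the 36 genes, 3 had a QSC MyoD peak (Fat4, Tle4 and Vgll3, each in 1 library), against 1.03% of all RefSeq genes. A MyoG peak was given to 2 of them (Vgll4 in ASCs and Wwc1 in QSCs), against 4.33%. Among the RUNX and TEAD genes these counts were 1 of 10 and 0 of 10. For comparison, 2 of the 4 myogenic regulatory factor genes, 2 of the 4 Mef2 genes and 1 of 8 AP-1 genes had a MyoD consensus region in ASCs, beside 4 of the 10 RUNX and TEAD genes. The share of all RefSeq protein-coding genes was 5.95%, and families this small cannot be ranked by such counts.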

How the data were processed

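The labels describe 14 samples, 12 ChIP libraries and 2 inputs, which were not analysed here. Cells were fixed in 1% formaldehyde and chromatin was sheared to about 500 bp. According to the submitters' processing notes, BWA 0.7.5, MACS, deepTools 3.5.0 and build mm10 were used. The MACS version, the use of the inputs and the filters on peaks are not given in the sources used here. The deposited lists give, for each library separately, the position of each peak, its score (minus 10 times log10 of the p-value, computed by the authors), a gene and a gene part. They hold no reads, so depth is unknown, and no differential test on read counts could be fitted. Scores depend on depth and are given to describe and rank calls.

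Groups and replicate numbers came from the sample titles. Peaks overlapping by at least 1 bp were merged, and regions were compared by two-sided Fisher exact tests on libraries with a peak, with Benjamini-Hochberg adjustment over all merged regions of the comparison. Distances and gene lengths used RefSeq genes of GRCm38.p6, the assembly of mm10, to which 4104 of 4384 listed gene names (93.6%) matched. Motifs were searched in RefSeq promoter windows, because the sequence of the peaks was not analysed here. Python 3.11.15, NumPy 2.4.6, pandas 2.3.3, SciPy 1.17.1 and Matplotlib 3.10.9 were used, and region calling was tested on simulated peak lists.

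All 10 genes are named with every region they were given, and of the pathway list every gene with a consensus region (at most 12). Compared families are given by counts. The genes and lists were chosen with earlier results of these data known. Alternatives were a score of at least 80, consensus in all 3 or at least 1 library, a gap of 500 bp, overlap of 50%, other gene assignments, the replicate block and leaving out libraries.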

Additional observations from a re-analysis of the deposited data

How the results depend on the processing

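The main counts were 3 genes with an ASC-specific MyoD region, 8 such regions and 0 genes with an ASC-specific MyoG region, and the MyoG count was 0 under every alternative run. Requiring a peak in all 3 libraries left 5 regions in Runx1, Runx2 and Tead1. Accepting a peak in at least 1 library gave 5 genes, which added Tead4 and Wwtr1. Counting any region in the gene or within 100 kb, also those listed under another gene, gave 6 genes (Runx1, Runx2, Runx3, Cbfb, Tead1 and Tead2), an alternative chosen after seeing the data. Of all RefSeq genes, 21.7% had an ASC MyoD consensus region within that distance, against 5.95% by the authors' gene names. Shares of all genes with an ASC-specific region are not given for these alternatives, so their counts cannot be set against the main one. Leaving out each library in turn gave 3 to 4 genes and 5 to 9 regions. A consensus still needed 2 libraries, so without an ASC library each remaining one had to hold a peak. The 5 regions came without ASC MyoD replicate 1, and the 4 genes and 9 regions without QSC MyoD replicate 3, which holds the single QSC peak at Tead4. A score of at least 80 gave 4 genes and 6 regions. A gap of 500 bp, 50% overlap, no distal regions, and only regions within 100 kb of the gene (chosen after seeing the data) gave 3 genes and 6 to 8 regions. The planned limit on distance from the start sites that the lists used was not run, as the lists give none.

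The labels do not say whether same-numbered libraries share animals. Correlations over regions between same-numbered ASC MyoD and QSC MyoD libraries were 0.0049, -0.0052 and 0.0048. They cannot settle this, since only 10 of the 1986 ASC MyoD consensus regions overlapped a QSC MyoD peak. The main tests treated the libraries as unpaired, and the replicate block was the paired alternative. With the replicate block, the exact sign-flip p was 0.25 where the Fisher p was 0.1, 0.5 where it was 0.4, and 1 where it was 1. No call could change, since neither test can reach 0.05 here. An exact permutation test on the same libraries gave the Fisher values. Unknown depth limits all statements on sites without a peak, most of all in the short QSC lists.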
